A study of Mus musculus with 2 samples.

Results

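The Sfmbt2 intronic miRNA cluster is a repeat-derived array of miRNA genes on mouse chromosome 2, described here in limbs of mouse embryos at embryonic day 13.5. Its members were chosen by position alone, as every counted miRNA gene with an annotated position within Sfmbt2 and on its strand. They number 107 of the 1973 miRNA genes counted. By name 20 belong to the Mir466 family, 20 to Mir669, 14 to Mir467 and 5 to Mir297, and 48 carry only a provisional Gm symbol. A further 12 miRNA genes annotated there, among them 9 copies from Mir669a-4 to Mir669a-12, were matched to no counted gene by identifier. Counted genes without a match, at 0 in both libraries, stand between the neighbours of these genes in the order of the counts. Whether they are the same genes under other identifiers was not tested. The 12 enter only the span, the spacing and the search for shared hairpin sequence. The limb tissue came from B6NCrl embryos of mixed sex, reported as healthy, with no treatment or mutation named in the labels, and males and females were pooled. It forms 1 group of 2 biological replicates, separate tissue samples under the same donor label, from which microRNA libraries of total RNA were made. The series has no second condition, so no test between conditions was possible.

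Sfmbt2 encodes a Polycomb group protein with MBT repeats, and the gene is imprinted, with expression from the paternal allele in the early embryo and in extraembryonic tissue. The miRNA cluster in its intron is known from mouse and rat, and its loss in the mouse impairs the placenta. A miRNA gene is transcribed as a hairpin, which is trimmed to a short mature strand. The seed, bases 2 to 8 of the mature strand, pairs with target transcripts. Many of the member hairpins are whole or part copies of others, so a short read from those can fit several of them. A read with several positions in the genome is in no gene's count here, so the count of a copied hairpin is a lower bound on its reads.

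None of the 107 members has an entry in the RefSeq miRNA table, so the sequences shown are mature miRNAs of the same families from counted genes outside Sfmbt2 (RefSeq, GRCm38.p6, the build called mm10). They are all 8 that the table holds for these genes, printed from the most to the least alike to a member so that the range of likeness can be seen. Capitals mark the seed. In the order printed, the first 5 lie on the plus strand at chr3:85467396-85467418, chr10:60960802-60960824, chr13:17747552-17747573, chr9:115381898-115381919 and chr3:115979905-115979924. The last 3 lie at chr5:34732872-34732892 on the minus strand, chr3:28419988-28420007 on the plus strand and chr11:69635419-69635439 on the minus strand.
mmu-miR-466k: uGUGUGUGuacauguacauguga
mmu-miR-466j: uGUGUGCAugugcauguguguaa
mmu-miR-466i-3p: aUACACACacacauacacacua
mmu-miR-467h: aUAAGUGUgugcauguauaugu
mmu-miR-669n: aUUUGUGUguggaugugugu
mmu-miR-467g: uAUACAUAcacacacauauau
mmu-miR-466q: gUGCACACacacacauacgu
mmu-miR-467f: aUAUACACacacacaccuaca

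The 8 seeds differ from each other. No member hairpin holds any of these mature sequences whole. A stretch of 22 of the 23 bases of mmu-miR-466k nevertheless occurs in 8 members, and 22 of the 23 bases of mmu-miR-466j in 10. For mmu-miR-466i-3p the longest such stretch is 21 of 22 bases, in Mir466f-2 alone. For mmu-miR-467h it is 18 of 22 bases, in 3 Mir669 members, and for mmu-miR-669n 18 of 20 bases, in Mir669c alone. The other 3 were less alike, with 16 of 21 bases for mmu-miR-467g, 15 of 20 for mmu-miR-466q and 14 of 21 for mmu-miR-467f. The letters of the 8 seeds, in the order printed, occur in the hairpins of 38, 52, 51, 1, 10, 66, 30 and 27 members. Of the 10 counted genes of these families outside Sfmbt2, Mir466q had 1 sense count in replicate 1 and 0 in replicate 2, and the other 9 had 0 in both libraries. A count of 0 allows up to 3 counts, which is 0.506 sense CPM in replicate 1 and 0.4997 CPM in replicate 2. CPM values are sense counts per 1000000 sense counts in miRNA genes of a library, of which there were 5927321 and 6003632. These limits and the intervals given further on cover counting error only.

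All members lie in intron 10 of the 23-exon transcript Sfmbt2-201 (mm10 chromosome 2, 10461473 to 10523944, 62.5 kb), and none overlaps an annotated exon of Sfmbt2. With the 12 genes not matched to a count they span 53.0 kb, from 10465287 to 10518279, or 23.6% of the 225 kb host gene. In the middle lies a tandem array. The 10 Mir467a copies follow each other at a median of 2462 bases from start to start. The 9 Mir669a copies annotated in that stretch, of which 1 was matched to a count, follow at 2460 bases. Across the cluster 953 of 5671 pairs of members (16.8%) share an identical stretch of at least 22 bases, on either strand, and the longest is 127 bases. Among the 107 members there are 15 sets with hairpins identical over their whole length. The largest of these holds 7 members, Mir467a-2, Mir467a-4, Mir467a-5, Mir467a-7, Mir467a-8, Mir467a-9 and Gm25022, all at 0 counts. The other 14 sets were also at 0 counts in both libraries. A larger set lies outside the members: the 9 unmatched copies Mir669a-4 to Mir669a-12 are identical to each other.

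**Figure D1:**
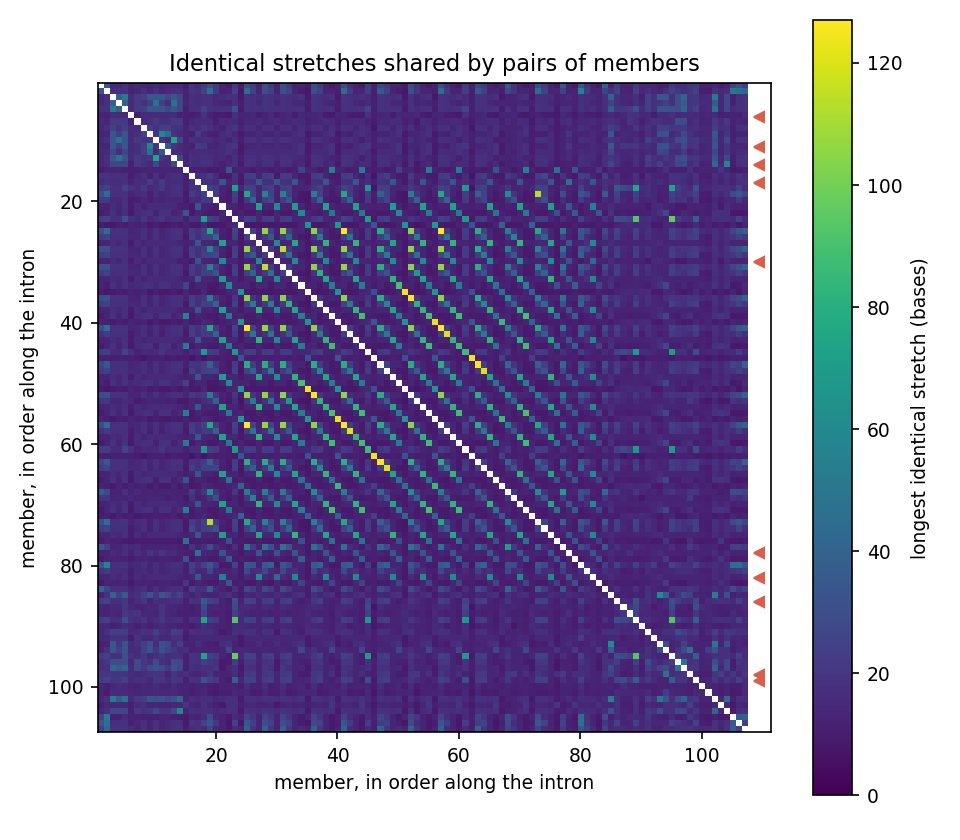
Longest identical stretch, in bases, between the hairpins of each pair of the 107 members, numbered in order along the intron on both axes, with the diagonal left blank. Parallel bright lines mark the tandem array in the middle. Red triangles at the right mark the 10 members detected in both libraries, and 1 of them lies in the array.

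Markers of limb tissues were present in both libraries. Mir196b, a Hox cluster gene, lay at 79590 and 70886 CPM in replicates 1 and 2, and Mir140 of cartilage at 46697 and 46556 CPM. The muscle gene Mir206 lay at 3741 and 3940 CPM and Mir203 of epithelium at 7971 and 8804 CPM. Mir122 of liver lay at 66.8 and 80.6 CPM. The neuronal list, Mir9-2 and the 3 Mir124a copies, was at 0, but these genes share 32 or 33 bases with other hairpins, so their zeros do not show that neuronal RNA was absent. Mir208a of heart lay at 4.89 and 8.66 CPM. The 5 counted genes of the early embryo and trophoblast list (Mir290a to Mir295) summed to 10.5 and 7.50 CPM. Of these 2 had at least 10 counts in each library, Mir293 with 39 and 25 and Mir294 with 17 and 15. The part of any of these cells in the cluster's values was not tested. Of 10 miRNA genes listed from other imprinted hosts 9 were counted and all 9 detected, at 99848 and 103713 CPM in sum. In a bulk tissue, fewer expressing cells and less RNA per cell cannot be told apart.

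The cluster as a whole held 29456 sense counts in replicate 1 and 28368 in replicate 2. That is 0.497% (95% exact Clopper-Pearson interval 0.491 to 0.503) and 0.4725% (0.467 to 0.478) of the sense counts in miRNA genes. The mean share was 0.485% ± 0.017 (SD, n = 2). No antisense read fell on any member. A count of 0 allows an antisense share of up to 0.0102% and 0.0106% of the reads on the cluster, while over all counted genes 3.17% and 3.26% of reads in genes were antisense.

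Few members carried the counts. Counting a gene as detected from 10 sense counts upward in both libraries, 10 of 107 members (9.35%) were detected, against a background of 18.9% of all 1973 genes (372). A further 18 members had 1 or more counts without reaching that mark and summed to 64 and 45 counts. The remaining 79 were at 0 in both libraries. The 3 genes Mir467e, Mir467d and Mir467c held 82.5% ± 1.6 (SD, n = 2) of the cluster's counts. The 6 highest members held 99.0% in each library.

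In the Mir467 family, 4 of 14 members were detected. Mir467e (10505721 to 10505807) lay at 1422 CPM in replicate 1 and 1477 CPM in replicate 2, from 8428 and 8869 counts. Mir467d (10507630 to 10507714), its neighbour, lay at 1332 and 1383 CPM. Mir467c (10473931 to 10474027), on the other side of the array, lay at 1289 and 1093 CPM. They are the 3 highest members in each library, and they rank 85th, 88th and 93rd among all counted genes by mean CPM. The log2 ratio of Mir467e over Mir467d was 0.094 and 0.095 in the libraries, so their small difference was nearly the same in both. Mir467d exceeded Mir467c by 0.05 and 0.34 on the log2 scale, a difference of the size of the spread between the libraries.

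The fourth detected gene, Mir467b (10481248 to 10481320), lay far lower, at 2.53 and 1.67 CPM from 15 and 10 counts. It is the detected member inside the array, and Mir467e was 706-fold above it in counted reads. Mir467b shares 62 of its 73 bases with copies of Mir467a, so its count is a lower bound and the fold is not one of expression. Mir467a-1 had 2 counts in each library. The other 9 Mir467a genes, from Mir467a-2 to Mir467a-10, were at 0.

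In the Mir669 family, 4 of 20 members were detected. Mature miRNAs of the miR-669a kind are known from muscle and heart progenitors, where they act on the muscle regulator MyoD. Mir669o (10514300 to 10514395) lay at 421.8 and 327.5 CPM. Mir669l (10468971 to 10469068), at the opposite end of the cluster, lay at 337.8 and 304.6 CPM. Both libraries put Mir669o above Mir669l, by 0.32 and 0.10 on the log2 scale, and the libraries of the 2 genes overlap in CPM. Mir669c (10509296 to 10509404) lay at 116 and 93.8 CPM, 3.07-fold below Mir669l. Mir669e (10467495 to 10467613) lay at 14.3 and 18.7 CPM.

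The other Mir669 members were low. Mir669h, the last member of the cluster, had 18 and 6 counts, above the mark of 10 in replicate 1 and under it in replicate 2. Mir669f had 7 and 4 counts and Mir669a-3 had 5 and 4. The remaining 13, with Mir669b as the first by position, were at 0.

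In the Mir466 family, 1 of 20 members was detected. Mir466n (10513741 to 10513834) lay at 18.9 and 16.3 CPM, level with Mir669e: it was higher in replicate 1 and lower in replicate 2. Mir466 itself had 5 and 3 counts, Mir466h 4 and 2, and Mir466g 1 and 5. Mature miR-466h is known as a miRNA that promotes cell death when nutrients run out. Mir466l, known from its action on the Il10 transcript, was at 0, as were 11 others, with Mir466m as the first by position. In the Mir297 family, Mir297a-2 (10472254 to 10472343) was the detected member of 5, at 3.71 and 2.00 CPM from 22 and 12 counts. Mir297c had 0 and 2 counts, and Mir297b, Mir297a-3 and Mir297a-4 were at 0.

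None of the 48 members with a Gm symbol was detected. Together they had 17 and 10 counts, and 42 of them, with Gm22677 as the first by position, were at 0. Gm22925 was the highest, with 8 and 5 counts. Their hairpins were compared with the genes named Mir297, Mir466, Mir467 or Mir669 in the intron, counted or not. Among these named genes, 43 of the 48 have their longest identical stretch in common with a Mir669 gene. That stretch ran from 16 bases in Gm22239 to 113 in Gm25673, so for some it is short. Other Gm copies were left out of this comparison and can share more. Gm25701, for example, shares 127 bases with Gm24488 and Gm26431, against 77 with a Mir669 gene.

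**Figure D2:**
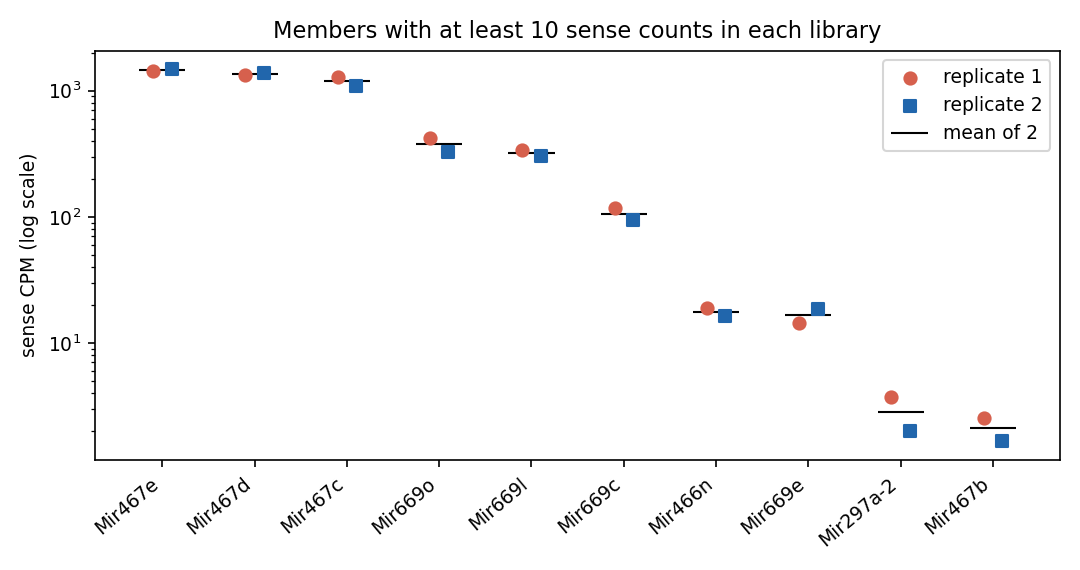
Sense CPM (log scale) of the 10 detected members in replicate 1 (circles) and replicate 2 (squares), with a bar at their mean. Mir467e, Mir467d and Mir467c lie above 1000 CPM in both libraries, and Mir297a-2 and Mir467b lie under 4 CPM.

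The hairpins of the detected members are 73 to 119 bases long. Scaled to hairpin length, Mir467e had 1666 CPM per 100 bases, Mir467d 1597, Mir467c 1228, Mir669o 390 and Mir669l 328. The order of the 10 by mean was the same with and without this scaling. Reads of mature miRNAs need not grow in number with the length of the hairpin, and differences between hairpins in ligation and amplification were not measured.

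Counts lay at the ends of the cluster. Split at the first and last Mir467a copy, the cluster has 20 members before the array, 55 in it and 32 after it. This split was chosen after the values were seen. The members before the array held 9766 and 8526 counts, or 33.2% and 30.1% of the cluster. Those after it held 19673 and 19830 counts, or 66.8% and 69.9%. The 55 array members held 17 and 12 counts, from Mir467b and Mir467a-1, and the other 53 were at 0. Array hairpins share their longest stretch with another hairpin over a median of 88 bases, against 51 before and 47 after the array. Of the 55 array members 40 have no 22-base window found at only 1 place among annotated hairpins, against 0 before and 2 after the array. How many multimapping reads came from the array was not tested, so its level is not known from these counts.

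**Figure D3:**
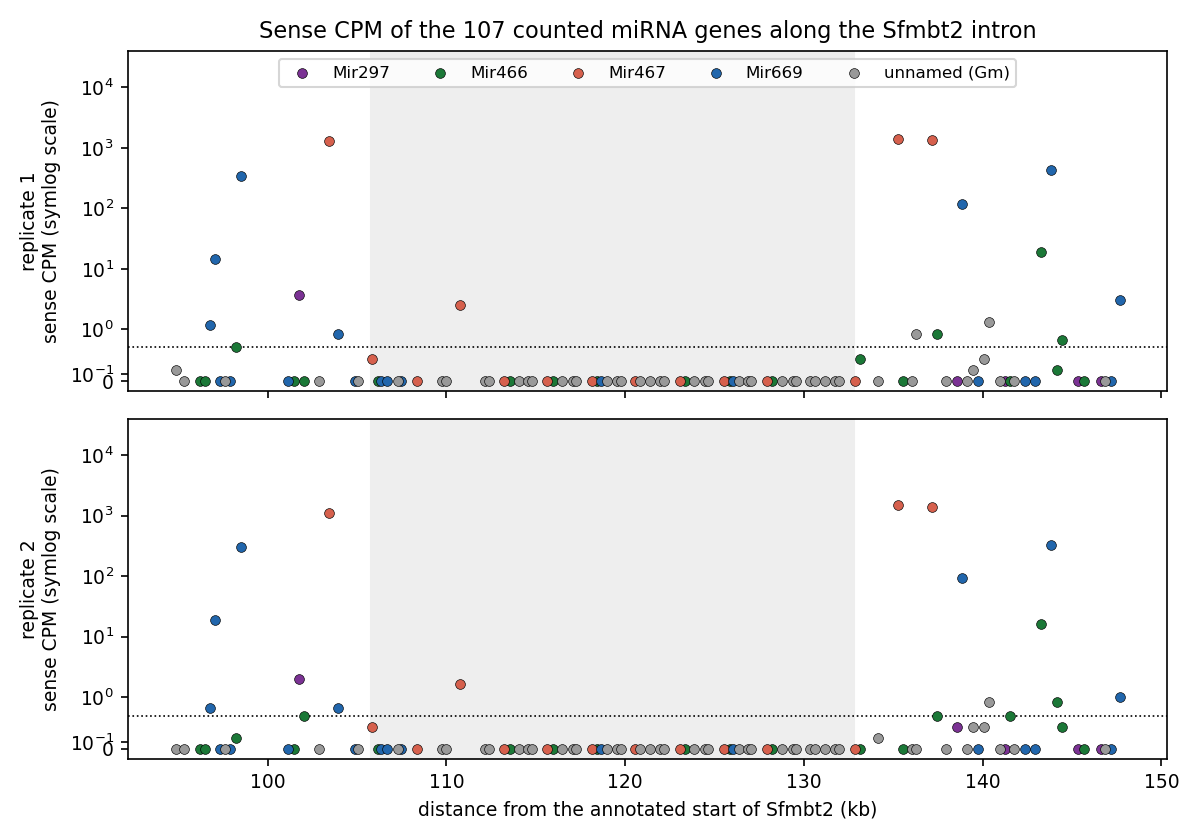
Sense CPM (symlog scale, linear near 0) of each of the 107 members against the distance of its midpoint from the annotated start of Sfmbt2, in kb, with replicate 1 above and replicate 2 below. Colours give the family, grey shading runs from Mir467a-1 to Mir467a-10, and the dotted line is the limit of 3 counts. The shaded stretch is at or near 0 and the higher points lie on either side of it.

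For this count of windows, used as a measure of which members could have been counted, each hairpin was cut into all its windows of 22 bases. Each window was searched on both strands of the 2202 annotated miRNA hairpins of GENCODE M21. A window found at 1 place can give a read with 1 position among these hairpins, although copies elsewhere in the genome were not searched. Of the 107 members 65 have at least 1 such window and 42 have none. All 10 detected members are among the 65. The 42 without one held 4 counts in all, those of Mir467a-1.

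In the Mir467 family this split matched the counts gene by gene. The 4 members with a window found once are Mir467b, Mir467c, Mir467d and Mir467e, the 4 that were detected. The 10 Mir467a genes have no such window, and none was detected. In the other families most members with a window found once were not detected. Those detected were 4 of 16 in Mir669, 1 of 14 in Mir466, 1 of 5 in Mir297 and 0 of 26 among the Gm members. The levels of Mir467a-1 to Mir467a-10 are accordingly not known from these tables. Nor are those of Mir466c-2, the 5 members Mir466b-4 to Mir466b-8, and Mir669a-1, Mir669a-2, Mir669p-1 and Mir669p-2, which also have none.

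The abundant members are themselves only partly countable. Windows found once made up 59.1% of the windows of Mir467e, 39.1% of Mir467d and 63.2% of Mir467c. They made up 58.7% for Mir669o, 53.3% for Mir669l and 83.0% for Mir669c. Mir467e and Mir467c share 48 bases with each other, and Mir467d shares 60 bases with copies of Mir467a. Reads from those stretches would be missing, so the order of these genes holds for counted reads only. The same is true of the distance of Mir467b, with 21.15% of windows found once, below Mir467e.

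Such windows were unevenly placed along some hairpins. Windows lying wholly on the 5′ side of the hairpin's midpoint were found once in 19 of 21 cases in Mir467d, against 6 of 21 on the 3′ side. In Mir467b the pattern was the opposite, with 0 of 15 on the 5′ side and 11 of 15 on the 3′ side. Each of the 6 highest members had at least 15 windows found once on the 5′ side. The 55 members with none there held 39 and 30 counts, with Mir297a-2 the highest at 2.86 ± 1.21 CPM (SD, n = 2), and 2 of them were detected. The 49 members with none on the 3′ side held 2 and 3 counts, and 0 were detected. All 10 detected members thus had such a window on the 3′ side, and 8 of them also on the 5′ side. Whether the reads came from the 5′ or the 3′ arm cannot be told from counts per hairpin.

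Several members with few shared windows were nevertheless at or near 0. Of 16 members with more than 75% of windows found once, 2 were detected, Mir669e and Mir669c. Mir466l (89.0% of windows found once), Mir669b (89.5%) and Mir669i (75.5%) were at 0 in both libraries. Gm22239 and Mir466g, with 100%, had 2 and 2 and 1 and 5 counts. For the hairpins at 0, this depth allows up to 3 counts per library, from windows with 1 position in the genome. Which of the unshared windows have 1 position there was not tested.

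Set beside the 1787 other genes with a hairpin sequence, the cluster differed in where its counts sat, as a description without a test. Of members with over 0 to 75% of windows found once, 8 of 49 were detected, against 2 of 375 other genes. These 49 members held 28658 and 27675 counts, and the 375 other genes held 251 and 186. Over 75%, 2 of 16 members and 359 of 1200 other genes (29.9%) were detected. With no window found once, 0 of 42 members and 1 of 212 other genes were detected. Those 212 genes held 175 and 398 counts, so lacking such a window did not always mean no counts. A further 2 annotated hosts hold at least 10 counted miRNA genes on their strand. Mirg, of the imprinted Dlk1-Dio3 region on chromosome 12, had 12 of 13 detected and 1.66% of counts, with a median longest shared stretch of 13 bases. A230057D06Rik on chromosome 7 had 0 of 11 detected, with a median of 25 bases.

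**Figure D4:**
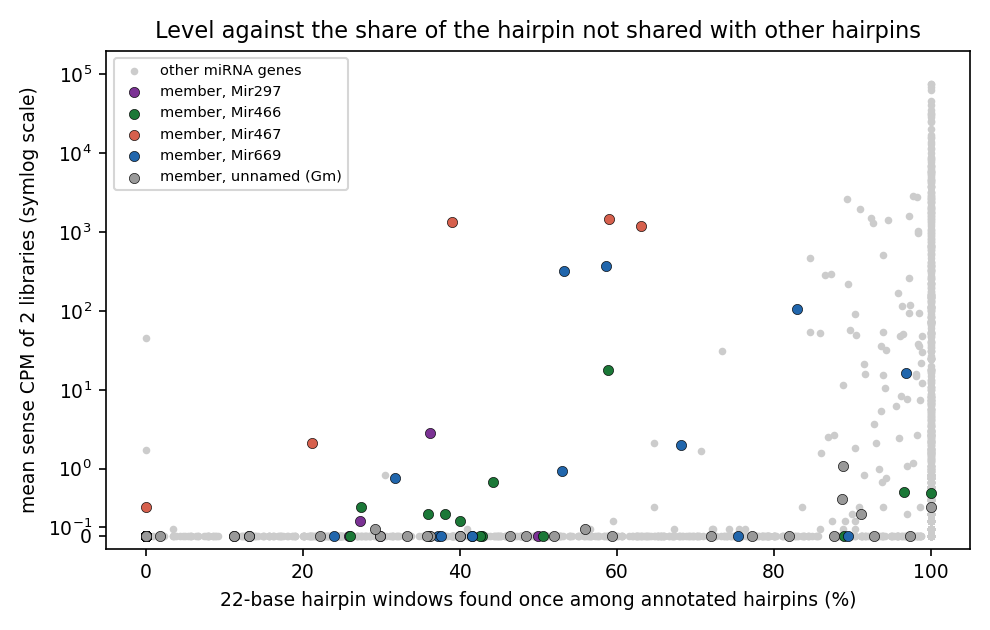
Mean sense CPM of the 2 libraries (symlog scale) against the percentage of 22-base hairpin windows found once among annotated hairpins, for the members (coloured by family) and for the other genes with a hairpin sequence (light grey). Mir467e, Mir467d, Mir467c, Mir669o and Mir669l stand between 39% and 63%, above the other genes there.

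The member hairpins were low in GC and rich in TG and CA repeats, as were their family copies elsewhere. Their median GC content was 38.3%, against 38.9% in the 10 family genes outside Sfmbt2 and 52.0% in the 1787 other genes. The dinucleotides TG, GT, CA or AC made up a median of 48.6% of hairpin dinucleotides in members, 55.4% in the 10 family genes outside and 26.6% in the 1787 genes. Predicted folding energy per base (RNAfold) was similar, at a median of -0.37 and -0.38 kcal/mol. Among members, the Mir467 hairpins had the lowest median, -0.44 kcal/mol per base, and the Gm members the highest, -0.29 kcal/mol. Detected members had a median of -0.41 kcal/mol (range -0.57 to -0.30), and the 97 others one of -0.36 kcal/mol (range -0.54 to -0.21). The ranges overlapped, with Mir466n lower than every undetected member.

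Between the libraries the summed cluster was slightly lower in replicate 2, by a log2 ratio of -0.07 (95% exact interval -0.10 to -0.05). This compares 2 libraries of 1 group and carries no condition. Mir467e and Mir467d were higher in replicate 2, by log2 ratios of 0.06 and 0.05. Mir467c (-0.24), Mir669o (-0.37), Mir669l (-0.15) and Mir669c (-0.31) were lower. Of the 13 members with at least 10 counts over both libraries 10 were lower in replicate 2, and the median ratio was -0.31 on the log2 scale. Of all 444 such genes 234 were lower, and the median was -0.02.

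In an exact binomial test of all 444 genes, Benjamini-Hochberg adjusted at 0.05 and requiring a difference of 1 or more on the log2 scale, 1 of 13 members passed, against a background of 3.38%. This was Mir669h (10518155 to 10518279), whose 18 and 6 counts give -1.53 on the log2 scale (exact binomial test, adjusted p = 0.0365). Its call was lost with DESeq2 size factors and with no count minimum for testing. Without the minimum ratio 7 of 13 members passed, against a background of 40.3%. They were Mir467c, Mir467d, Mir467e, Mir669c, Mir669h, Mir669l and Mir669o. The test covers counting error only, so deep genes pass at small ratios.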

How the data were processed

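MicroRNA libraries of embryonic limb, 2 biological replicates, were counted by the authors. Per the labels and the text deposited with the tables, the build is mm10 and the annotation M4. The aligner was not given in the sources used here, nor was the counting program. The deposited counts are whole reads per miRNA gene in 3 columns (either strand, sense, antisense, taken from the layout), after 4 lines for reads in no gene, which stayed out of CPM totals. Of 12407140 and 12657170 reads, multimapping reads were 30.8% and 29.5%, about 130 and 132 for each count in the cluster, and how many belong there is not known.

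Symbols, positions and hairpins came from GENCODE M21 (GRCm38) and matched 1894 of 1973 genes. Genes counted under identifiers absent from M21 have no position here and could not be assigned to the cluster. The genome sequence and the members' mature arms were not used here, so the planned searches ran on annotated hairpins. Genes annotated over the same locus counted as 1 place. Log2 ratios of single genes between the libraries used 0.5 added counts. Those of the summed cluster and those of 1 gene over another used none. Tools were Python 3.11.15, SciPy 1.17.1, pandas 2.3.3, RNAfold 2.7.2, and, for other scalings, edgeR 4.0.16 and DESeq2 1.42.0. The binomial test and the search were tested on simulated data.

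The cluster and the gene lists were picked for study with earlier results of these data known, and within the cluster membership follows from position alone. The rule named the detected members, the highest member of each family and the first member at 0 by position in each family. Other members were named after their values were seen. Where nothing shows separate embryos behind the replicates, SDs may be technical. Alternatives changed denominators, strands, count minimums, window lengths, scalings, pseudocounts and members.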

Additional observations from a re-analysis of the deposited data

How the results depend on the processing

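The mean share of 0.485% was 0.231% of all reads and 0.444% of uniquely mapped reads. It was 0.340% without Mir467e, 0.204% without Mir467e and Mir467d, and, in an alternative chosen after seeing the data, 0.348% over members with at least 50% of windows found once. Without either replicate it ranged from 0.4725% to 0.497%, and the detected members from 10 to 11. With a minimum of 1 count in each library 21 members were detected, against 570 of all genes (28.9%). Of 13 tested members 7 passed between the libraries without a minimum ratio. Mir669h, the 1 that passed with it, was lost with DESeq2 size factors (0 members) and with no count minimum for testing (0 members, more genes tested). The cause of the first loss was not tested. The summed log2 ratio was -0.25 without Mir467e and Mir467d. In the other 20 alternatives to these results, shares stayed within the SD and counts within 1.5 times. The summed ratio stayed within its exact interval, and the detected members' median ratio within the SD of their ratios. Some of these could not have moved. With 2 libraries, the share without either one lies within the SD by construction. No miRNA gene lies on the opposite strand within Sfmbt2, and no member had antisense reads. The share over both strands of Sfmbt2 and the members detected on both strands were thus fixed. The 40 alternatives to the detected members' ratios kept their direction. The search for mature arms was not run. For a member at 0, depth allows up to 3 counts per library from stretches with 1 position in the genome, which was not searched.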
